A study of Mus musculus with 8 samples.

Results

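RNA polymerase II, the Mediator complex and the general transcription factors were examined in C2C12 cells in which the long non-coding RNA Pvt1 had been silenced. The members were all probes that are not controls and whose array symbol is Polr2a to Polr2m, Tbp, or starts with Med, Taf or Gtf2a to Gtf2i followed by the numbering of those families. The rule gave 84 genes of the 37074 gene names on the array, with 180 of its 56605 probes. There were 13 polymerase genes, 31 Mediator genes and 40 genes of general factors and TBP-associated factors. Because the choice is by name, it also takes Med9os, a transcript opposite to Med9, and Taf15, an RNA-binding protein of the FET family. It further takes Taf5l and Taf6l of the SAGA coactivator, and Taf1a to Taf1d, which serve RNA polymerase I.

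C2C12 is a mouse myoblast line, and all cells were at passage 10, proliferating, and transfected with Lipofectamine 2000. In the silenced group (n = 4) the cells had received antisense LNA GapmeRs to Pvt1, oligonucleotides that have their target RNA cut by RNase H. In the control group (n = 4) they had received negative control GapmeRs by the study's methods, while the sample labels give the silencing as none (Mock). The 8 biological replicates were labelled with Cy3 and read on 8 one-colour arrays of 1 slide. Control replicates 1 to 3 and silenced replicate 1 lay in row 1 of the slide, control replicate 4 and silenced replicates 2 to 4 in row 2. Row and group were therefore partly confounded. A call lost with the row as a block can reflect the row or lower precision, which cannot be told apart.

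Transcription of protein-coding genes starts when the general factors TFIID, TFIIA, TFIIB, TFIIF, TFIIE and TFIIH place RNA polymerase II at a promoter. Mediator bridges that assembly to DNA-bound activators through its head, middle and tail modules, and a separable kinase module (Med12, Med13 and their paralogs with Cdk8 or Cdk19 and cyclin C) regulates the contact. In muscle precursors the same machinery reads the genes of proliferation and, later, of differentiation.

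The target and the state of the arrays came first. The brightest Pvt1 probe fell by 2.86 on the log2 scale (SE 0.32, limma adjusted p 0.000682). Silenced replicate 4 was the dimmest array, with 51.58% of its spots positive and significant against 58.83% to 62.47% on the other 7 arrays. Lists of genes that mark other cell types moved with the groups. Their level was taken as the log2 of the summed signal, in values without masking of dim spots. For 10 liver genes it was 9.82 to 10.77 in controls against 12.30 to 12.64 in silenced cells. Of the 10, 2 were nowhere well above background. Of these genes 8 had too few values to be tested, among them Alb, well above background on 4 silenced arrays and 0 control arrays, and the 2 tested were not called. For 4 macrophage genes it was 10.75 to 10.84 against 11.91 to 12.71, with 1 of the 4 not above background, although Cd68 was higher (1.84, limma adjusted p 0.000799) and Csf1r lower (-1.12, limma adjusted p 0.0237). Ptprc was not called (1.26, limma adjusted p 0.0588). For 3 adipocyte genes it was 7.06 to 7.86 against 8.07 to 9.04, with Adipoq not above background. Plin1 and Fabp4 were tested and not called (limma adjusted p 0.0825 and 0.291). The 3 endothelial genes were not above background on any array. The 7 myoblast genes were at 17.62 to 17.78 against 17.22 to 17.52, and Myf5 was the 1 of them not above background. Bright genes carry that sum, and Myod1 (-1.95, limma adjusted p 0.0013), Des (-1.35, limma adjusted p 0.00374) and Cdh15 (-0.86, limma adjusted p 0.0141) were lower. The part of these lists in the results below was not tested, and fewer cells of a type cannot be told apart from less RNA per cell.

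A few probes carry the results, and their 60 bases are given 5′ to 3′ with coordinates of mouse build mm9. The first set is shown because these probes fell, or fell more than a second probe of the same gene. Capitals mark a stop codon at the end of the Polr2a probe. In the other probes of this set nothing is marked, and the probe spans more than 60 bases of genome, so it crosses at least 1 exon junction. The Polr2a probe lies at chr11:69547912-69547971 (minus strand) and that of Med12 at chrX:98489514-98491239 (plus strand). The Med17 probe lies at chr9:15069878-15074810 (minus), that of Tbp at chr17:15650578-15651245 (plus) and that of Med22 at chr2:26764571-26765849 (minus).
Polr2a: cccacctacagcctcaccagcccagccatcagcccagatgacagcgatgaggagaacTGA
Med12: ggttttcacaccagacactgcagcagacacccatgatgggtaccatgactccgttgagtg
Med17: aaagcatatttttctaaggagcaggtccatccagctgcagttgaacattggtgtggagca
Tbp: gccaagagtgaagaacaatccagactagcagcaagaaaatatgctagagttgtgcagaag
Med22: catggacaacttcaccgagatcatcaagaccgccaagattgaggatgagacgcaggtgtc

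A second set shows both probes of Med8, a head subunit, since their changes differed although they report the same gene. The 5′ probe lies at chr4:118085295-118086235 (plus) and crosses an exon junction. Of the 3′ probe, at chr4:118087655-118087714 (plus), 30 bases are given, with a polyadenylation signal in capitals.
Med8 5′ probe: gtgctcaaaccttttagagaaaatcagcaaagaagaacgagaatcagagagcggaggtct
Med8 3′ probe, part: tcttgAATAAAtgatagtttcctacctttc

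Of the 180 member probes, 149 had enough values to be tested, and they covered 82 genes. Taf7, a TFIID subunit, and Gtf2a1l, a TFIIA paralog, had no tested probe. In silenced cells 32 member probes were lower and none was higher at a limma adjusted p under 0.05, which is 21.5% lower. At an unadjusted limma p under 0.05 there were 39 lower (26.2%) and 3 higher (2.01%), against 27.0% and 9.34% of the array. Over all 28649 tested probes 23.2% were called, 18.4% lower and 4.79% higher. The share of members that fell was therefore near that of the array. The groups did not overlap for 31 of the 32 called member probes (96.9%), against 90.9% of called probes on the array. The median change of the member probes was -0.30 and that of all probes -0.19, so single changes are best read relative to the latter.

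The absence of rises depended on the processing. Without silenced replicate 4, 8 member probes were higher and 31 lower, against 12% higher and 17.8% lower over the array. Cyclic loess, in place of quantile normalization, gave 21 higher and 34 lower, and placed the median of all probes at 0.02. A shift to the 75th percentile gave 29 higher and 23 lower, the authors' series values 19 and 27, and values without masking of dim spots 16 and 29. Over the array 18.9% (cyclic loess), 24.7% (shift), 9.86% (series values) and 8.82% (no masking) were higher. The shares lower were 18.4%, 15.2%, 9.75% and 8.46% in that order. Member rises, at 14.1% and 19.5%, were below the array share under cyclic loess and the shift. In the series values and without masking they were near it. Member falls were near the array share under the shift and above it in the rest. Of the 32 falls, 14 probes of 12 genes were called lower under every alternative limma fit that tested them, and none was called higher under any. Those genes were Polr2a (both probes), Med12 (both probes), Med1, Med17, Med24, Med25, Gtf2i, Taf1c, Taf5l, Taf6l, Taf10 and Tbp. How many of the falls over the array held in the same way was not counted. For Med1, Med17, Gtf2i, Taf5l, Taf10 and Tbp the probe was a dimmer one. The brightest probes of Med17 (-0.16), Gtf2i (0.11), Taf10 (-0.17) and Tbp (-0.33) were not called. That of Gtf2i was called higher with a shift to the 75th percentile (0.67). Med1 had 2 tested probes not called, at -0.09 and -0.48. With the row of the slide as a block, 18 member probes were lower (12.1%) and none higher, against 8.98% and 1.86% over the array.

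**Figure D1:**
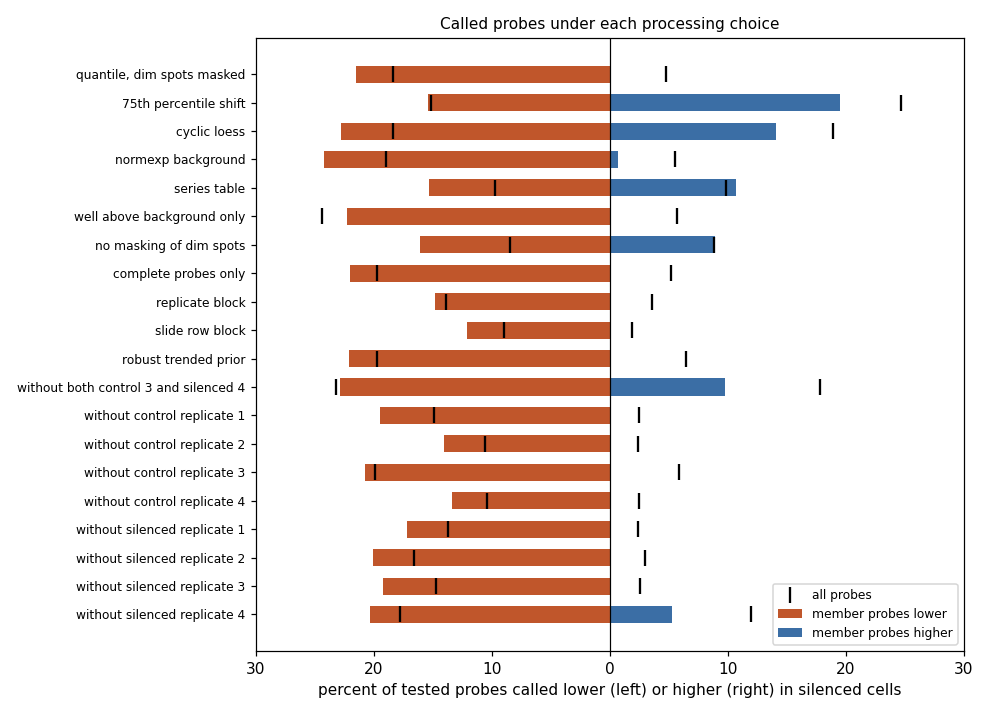
Percent of tested member probes called lower (bars to the left) or higher (bars to the right) in silenced cells under each processing choice, with the share of all probes as a black tick. The share of member probes called lower was between 12.1% and 24.2% throughout, while rises ranged from 0% to the 19.5% of a shift to the 75th percentile.

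Each gene was then represented by its brightest tested probe. By that measure 11 of 82 member genes (13.4%) were lower and none was higher by limma, against 14 lower and 2 higher at an unadjusted limma p under 0.05. Over the array 14.0% of 19360 genes were lower and 5.99% higher. The falls comprised 2 of 13 polymerase genes, 6 of 31 Mediator genes and 3 of 38 general factor genes.

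**Figure D2:**
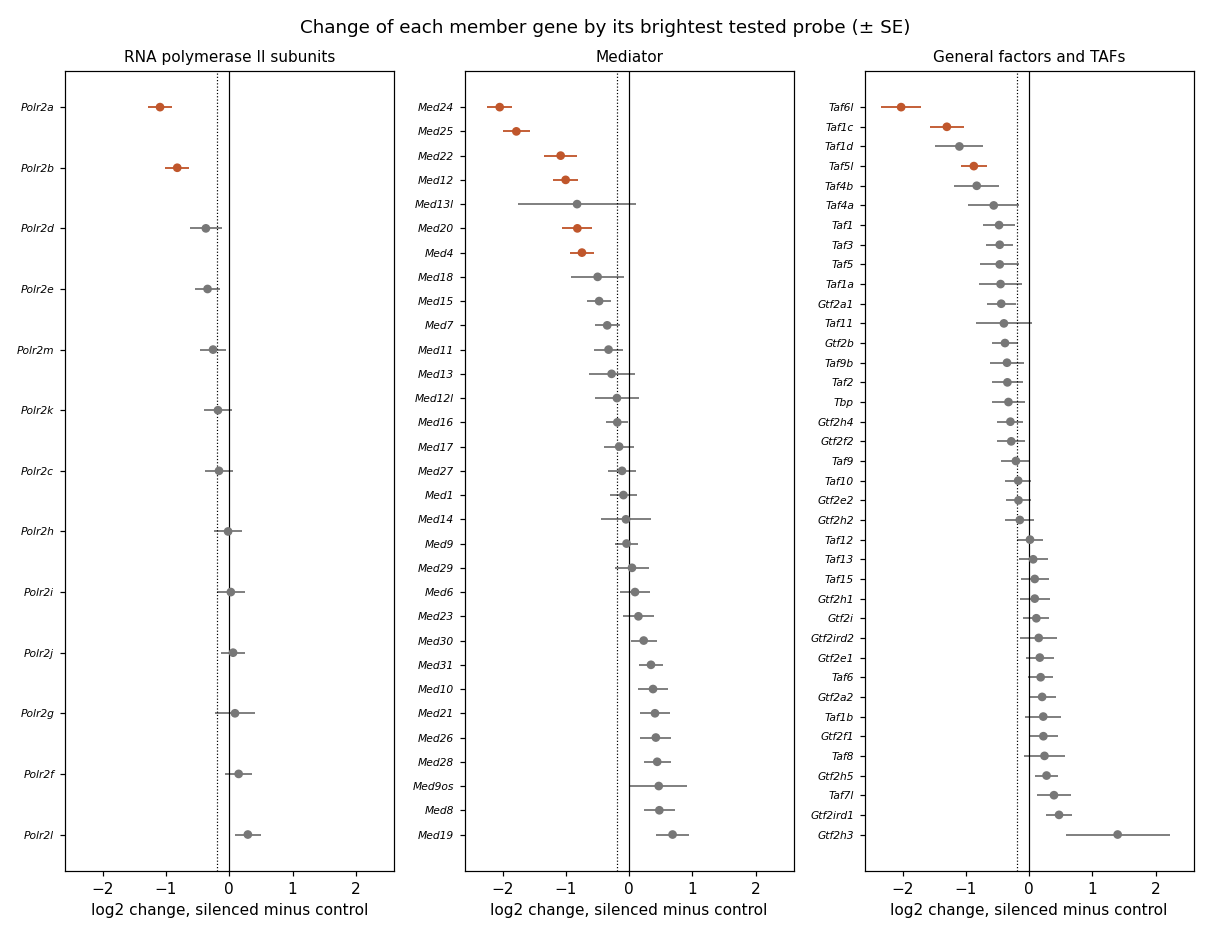
Change in log2 signal (silenced minus control, ± SE, 4 arrays a group) of each of the 82 tested genes by its brightest probe, with called falls in orange and the median of all probes as a dotted line. Med24 (-2.05) and Taf6l (-2.02) lie lowest, and Gtf2h3 has the highest value (1.40) with a wide error.

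Among the polymerase subunits the 2 largest, which together form the active centre, fell. Polr2a encodes the largest subunit and carries the heptad repeats of the carboxy-terminal domain, whose phosphorylation marks initiation and elongation. Its brightest probe (chr11:69547615-69547674) read 14.83, 14.93, 14.83 and 15.12 on control arrays 1 to 4 and 13.94, 14.07, 13.67 and 13.65 on silenced arrays 1 to 4. Every silenced array lay below every control array. The change was -1.10 (SE 0.19, limma adjusted p 0.00425), which left 46.8% of the control level.

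The second Polr2a probe, whose sequence ends on the stop codon, fell further. It read 12.48, 12.79, 11.40 and 12.74 on control arrays 1 to 4, against 9.65, 9.87, 9.38 and 9.58 on silenced arrays 1 to 4. The control replicate 3 value was the lowest control, and no silenced value came near it. The change was -2.73 (SE 0.31, limma adjusted p 0.000743), the largest fall of any tested member probe, and left 15.1% of the control level.

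Polr2b encodes the second largest subunit. Its tested probe (chr5:77777349-77777408) read 12.64, 12.75, 13.10 and 12.65 in controls and 11.93, 12.09, 11.94 and 11.89 in silenced cells. The groups did not overlap. The change was -0.82 (SE 0.19, limma adjusted p 0.0135), but a block for the slide row gave a limma adjusted p of 0.0803, and with a shift to the 75th percentile the change was -0.38 (limma adjusted p 0.159).

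The brightest probes of the other 10 subunits from Polr2c to Polr2l and of Polr2m (Gdown1, which associates with the polymerase) were not called. Their changes lay between -0.37 for the stalk subunit Polr2d and 0.29 for Polr2l, a small subunit shared by the nuclear polymerases. The core subunits Polr2c, Polr2i and Polr2j were at -0.16, 0.02 and 0.06. The second stalk subunit, Polr2g, was at 0.09. The shared subunits Polr2e, Polr2f, Polr2h and Polr2k were at -0.34, 0.15, -0.02 and -0.18. Polr2e alone of these did not overlap between groups, with control values from 14.87 to 15.49 and silenced values from 14.74 to 14.85. The brightest Polr2l probe was called higher with cyclic loess (0.48), the series values (0.47), no masking (0.49) and a 75th percentile shift (0.88). A dimmer Polr2l probe was at -0.81 (limma adjusted p 0.0515), and was called lower in 6 of 19 alternative limma fits.

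Dimmer probes of the same subunits did not always follow the brightest one. A dim Polr2c probe fell by 1.13 (limma adjusted p 0.0174), a brighter one fell by 0.60 (limma adjusted p 0.0414), and a second Polr2e probe fell by 0.84 (limma adjusted p 0.0181). These calls held in 13 of 18, 7 of 19 and 14 of 19 alternative limma fits. With the slide row as block they ended (limma adjusted p 0.0802, 0.173 and 0.103), and with the replicate block those of 2 did (0.132 for the brighter Polr2c probe, 0.065 for Polr2e). A 75th percentile shift left the same 2 at -0.20 and -0.41, not called. In all, 6 of 24 tested polymerase probes, from 4 genes, were lower, which is 25.0% against 18.4% of the array.

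In Mediator the largest falls by brightest probe were those of Med24 and Med25, 2 of 5 genes of the tail, the module that activators contact most. Med24 had 1 probe on the array (chr11:98567694-98567753). It read 9.90, 10.26, 10.38 and 10.30 in controls and 8.20, 8.37, 8.10 and 7.97 in silenced cells. The lowest control was more than 1 log2 above the highest silenced value. The change was -2.05 (SE 0.20, limma adjusted p 0.000444), which left 24.2% of the control level.

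Med25, the tail subunit through which several activators bind, read 12.09, 12.27, 11.93 and 12.28 in controls and 10.33, 10.77, 10.32 and 10.01 in silenced cells at its brightest probe (chr7:52136400-52136459). The groups did not overlap there. The change was -1.78 (SE 0.22, limma adjusted p 0.000899). The other Med25 probe (chr7:52132371-52132430), designed on another transcript model, read 9.57 to 10.17 in controls and 9.44 to 9.96 in silenced cells. These overlapped, and the change was -0.04 (limma adjusted p 0.92). At their brightest probes the other tail subunits Med15, Med16 and Med23 were at -0.48, -0.19 and 0.15 and not called. A dimmer Med16 probe, with no value on silenced replicate 4, fell by 1.39 (SE 0.24, limma adjusted p 0.00483). In the series values that probe was at 0.16 (limma adjusted p 0.96).

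The head module, which touches the polymerase, held 2 called falls by brightest probe among 7 genes, while Med17, described below, fell at a dimmer probe. The Med22 probe shown above was well above background on all 4 control arrays and on no silenced array. It read 6.13, 7.05, 6.84 and 7.06 in controls and 5.62, 5.95, 5.83 and 5.34 in silenced cells, so controls were at least 1.52-fold higher (limma adjusted p 0.0158). Without control replicate 2 or 4 the limma adjusted p was 0.0593 and 0.0607. Med20 was at 10.98, 11.18, 11.23 and 11.30 in controls and 10.48, 10.75, 10.41 and 9.78 in silenced cells. These did not overlap, with a change of -0.82 (SE 0.24, limma adjusted p 0.0337). Its call ended without control replicate 1, 2, 3 or 4 and without silenced replicate 1 or 3, where the limma adjusted p was 0.053, 0.0906, 0.0526, 0.103, 0.0678 and 0.0639.

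The kinase module restrains Mediator and gives it kinase activity. Med12, which activates the kinase, fell at both tested probes. The brighter one (chrX:98492544-98492603) read 12.01, 12.18, 12.31 and 12.17 in controls and 11.25, 11.48, 11.06 and 10.87 in silenced cells, a change of -1.0 (SE 0.20, limma adjusted p 0.00724). The one shown above read 9.87, 10.17, 10.00 and 10.17 against 8.27, 8.56, 7.90 and 7.62, a change of -1.96 (SE 0.24, limma adjusted p 0.000903). Neither probe overlapped between groups.

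Its paralog Med12l was not well above background on any array. Med13, which links the kinase module to the core, had a change of -0.28 (limma adjusted p 0.63) with no value on control replicate 2, which the fit left out. The Med13 paralog Med13l read 10.97, 11.54, 11.14 and 11.18 in controls and 11.42, 11.34, 11.89 and 6.89 in silenced cells. Silenced replicate 4 alone was low, and the change of -0.82 (limma adjusted p 0.572) was smaller than the SD of 2.34 between silenced arrays.

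The middle module, which lies between head and tail, contributed 1 called fall by brightest probe among 9 genes, that of Med4 (-0.75, limma adjusted p 0.0189), named here after its value was seen. That call was lost with the slide row block (limma adjusted p 0.11), the replicate block (limma adjusted p 0.0719) and a 75th percentile shift (-0.28, limma adjusted p 0.187). The scaffold subunit Med14, which holds the modules together, was at -0.05. Among Mediator subunits, which leaves out the antisense Med9os (0.47), values on the high side were led by Med19 (0.69), Med8 (0.48), Med28 (0.44), Med26 (0.42) and Med21 (0.41), none of them called with limma in the quantile-normalized values. Under cyclic loess, the series values and no masking alike, 16 probes of 15 members were called higher, and these 5 genes were among them.

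**Figure D3:**
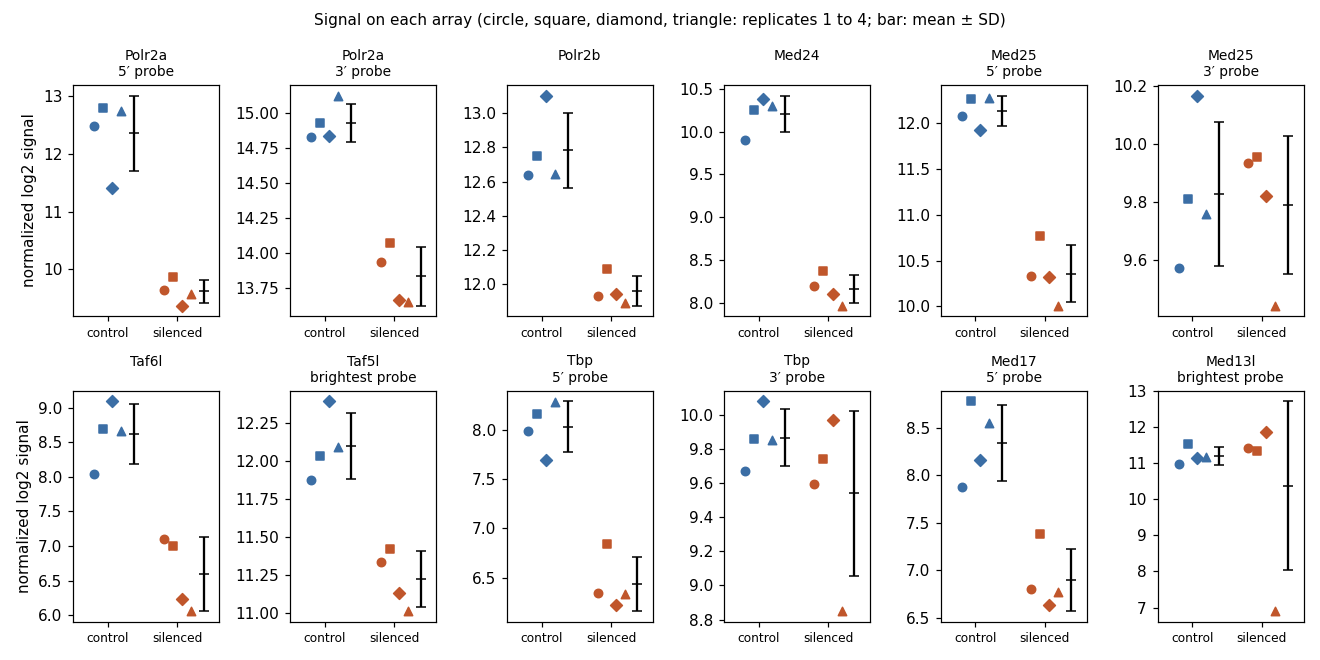
Normalized log2 signal on each array for selected probes, with blue for control and orange for silenced arrays, marker shapes for replicates 1 to 4 and a bar for the mean ± SD (n = 4). The groups are apart for Polr2a, Polr2b, Med24, Taf6l, Taf5l and the 5′ probes of Med25, Tbp and Med17, they overlap at the 3′ probes of Med25 and Tbp, and silenced replicate 4 lies apart for Med13l (6.89). Each panel has its own axis, which does not start at 0.

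The general factors had the lowest share of called genes by brightest probe (7.89%), with a median of -0.19. None of the 27 tested genes of TFIIA, TFIIB, TFIID, TFIIE, TFIIF and TFIIH was called by limma with that measure. At an unadjusted limma p under 0.05 there was 1, the TFIID subunit Taf4b (-0.83, limma adjusted p 0.125). Alternatives called 6 higher (a shift to the 75th percentile), 2 higher and 1 lower (cyclic loess), 3 higher (the authors' series values) and 1 higher (no masking). Over all tested probes, counted by probe and not by gene, these settings called 24.7%, 18.9%, 9.86% and 8.82% higher. They called 15.2%, 18.4%, 9.75% and 8.46% lower. TFIIB, encoded by Gtf2b and needed to seat the polymerase at the start site, was at -0.38 (limma adjusted p 0.212).

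Of the SAGA subunits, Taf5l and Taf6l fell. Taf9, Taf10 and Taf12, which SAGA shares with TFIID, were at -0.21, -0.17 and 0.01 by brightest probe and not called, while dimmer probes of Taf9 and Taf10 were lower. Taf6l, a histone-fold subunit of the SAGA core, read 8.03, 8.69, 9.09 and 8.66 in controls and 7.10, 7.0, 6.23 and 6.06 in silenced cells (chr19:8849507-8849566). The groups did not overlap, and the change was -2.02 (SE 0.32, limma adjusted p 0.00251). On the silenced arrays it was well above background on 2 of 4. Taf5l, another core SAGA subunit, fell at its brightest probe by 0.87 (SE 0.20, limma adjusted p 0.0131), from 11.87, 12.03, 12.39 and 12.10 to 11.33, 11.42, 11.13 and 11.01. That call was lost with the slide row as a block (limma adjusted p 0.0761) and under a shift to the 75th percentile (-0.49, limma adjusted p 0.064). Its dimmer probe changed by -2.58 (limma adjusted p 0.00435), with no value on silenced replicate 4, which the fit left out. That probe was well above background on only 1 array of 1 group.

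Taf1c, a subunit of the SL1 factor of RNA polymerase I, read 9.03, 9.36, 9.87 and 9.44 in controls and 8.15, 8.60, 8.14 and 7.61 in silenced cells. Control and silenced values were apart, and the change was -1.30 (SE 0.27, limma adjusted p 0.0082). The other SL1 genes Taf1a, Taf1b and Taf1d were at -0.45, 0.22 and -1.10 and not called.

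Tbp, the TATA-binding protein shared by the 3 nuclear polymerases and used in the study as a reference, had 3 tested probes that differed. The brightest (chr17:15654250-15654309) read 9.67, 9.86, 10.08 and 9.85 in controls and 9.60, 9.74, 9.97 and 8.85 in silenced cells. Silenced replicates 2 and 3 lay among the controls and replicates 1 and 4 below them, with a change of -0.33 (limma adjusted p 0.406). The probe shown above read 7.99, 8.16, 7.70 and 8.28 against 6.35, 6.84, 6.22 and 6.34. It fell by 1.59 (SE 0.22, limma adjusted p 0.00153) without overlap. The third probe, between them, (chr17:15653677-15653736) fell by 0.94 (SE 0.24, limma adjusted p 0.0194), a call made in 12 of 19 alternatives.

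Gtf2h1, the p62 subunit of TFIIH, repeated this. Its brightest probe was at 0.09 (limma adjusted p 0.825), while a dimmer one (chr7:54063938-54063997) read 7.20, 7.35, 6.32 and 7.55 in controls and 5.00, 6.01, 6.03 and 5.23 in silenced cells. On silenced arrays the latter was never well above background, so controls were at least 1.92-fold higher (limma adjusted p 0.0113). Med22 and Gtf2h1 were the 2 members well above background on all control arrays and no silenced array, and no member showed the reverse. Over the whole array there were 525 and 86 such probes. The highest value of a general factor was that of Gtf2h3, another TFIIH subunit, at 1.40 (limma adjusted p 0.252). It rested on control replicate 3, at 6.0 against 9.78, 10.26 and 10.11 on the other controls and 10.14 to 10.76 in silenced cells.

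Such disagreement between probes was seen in other members too. Of 47 members with at least 2 tested probes, 16 had both called falls and probes not called, and 3 had falls at all of them. The same count was not made for the array, so it cannot be called particular to the members. The position of the probes along the gene was therefore compared. For 47 members the probe nearest the 5′ end and the one nearest the 3′ end lay at least 60 bases apart on the same strand, and the difference of their log2 signals was fitted across all 6133 such genes of the array. Here and below, a probe fell more, or had the larger fall, where its change was the lower of the 2. This includes genes where neither probe fell, as for Taf15 (0.73 at the 5′ probe and 0.09 at the 3′ probe, neither called). By that measure the 5′ probe fell more in 35 of 47 members (74.5%), against 70.7% of all genes. The changes differed in 17 members (limma adjusted p under 0.05), 15 with the lower change at the 5′ probe and 2 at the 3′ probe. Of all genes, 38.9% were called. The members thus did not stand apart from the array in this respect. By class, the 5′ probe fell more and was called in 8 of 17 Mediator genes, 5 of 23 general factor genes and 2 of 7 polymerase genes. Over the array the same held for 1945 of 6133 genes.

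The median over members of the 5′ minus the 3′ signal was -1.72, -1.69, -2.11 and -1.72 on control arrays 1 to 4 and -2.74, -2.26, -2.72 and -2.22 on silenced arrays 1 to 4. Every silenced array lay below every control array. Over all genes it was between -2.13 and -1.82 in controls and between -2.56 and -2.30 in silenced cells.

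**Figure D4:**
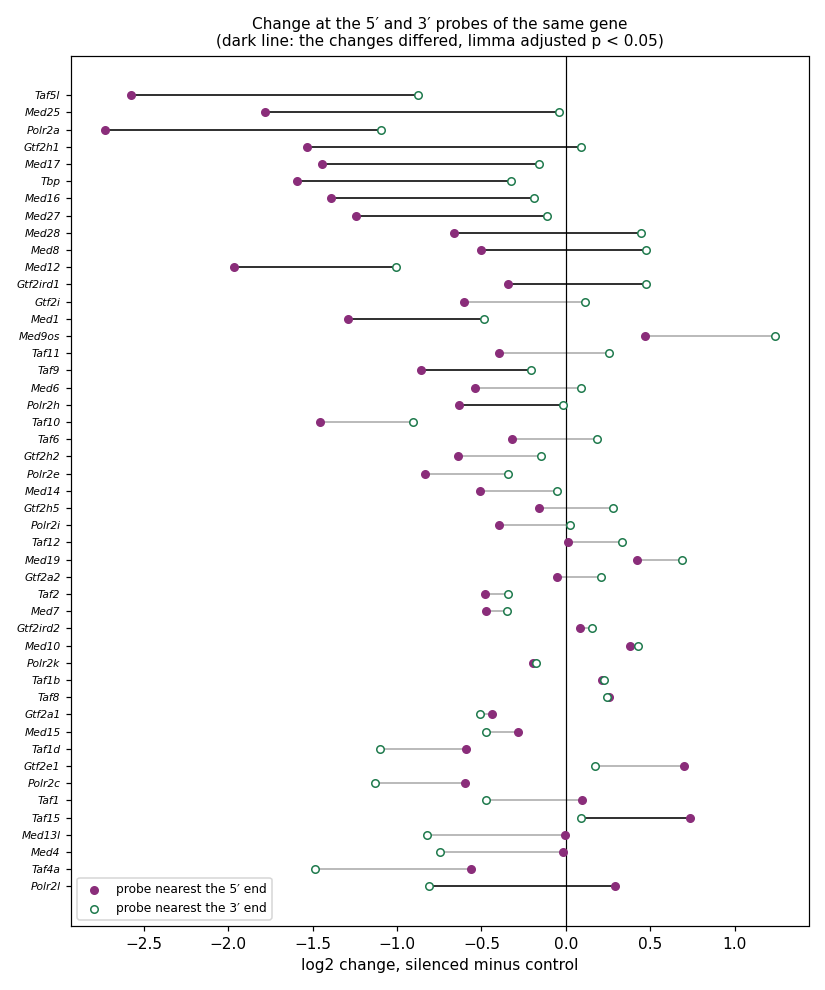
Change in log2 signal (silenced minus control) at the 5′ probe (filled) and the 3′ probe (open) of the 47 members that have both, ordered by their difference, with a dark line where the 2 changes differed. The 5′ probe lies further left in 35 of 47 genes, and Polr2l and Taf15 are the 2 called exceptions.

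By computed value the called differences were led by Taf5l, Med25, Polr2a, Gtf2h1, Med17 and Tbp. For Taf5l, whose 5′ probe was well above background on only 1 array of 1 group, the difference was -1.78 (limma adjusted p 0.0184) over 982 bases. It was called in 10 of 16 alternatives. The limma adjusted p was 0.0521 and 0.0523 without control replicate 2 or 4, and 0.0672 and 0.0664 without silenced replicate 1 or 3. For Med25 it was -1.75 (SE 0.23, limma adjusted p 0.000858). In Polr2a the probes are 297 bases apart, so the stop codon probe and the probe beyond it report the same end of the transcript. There the 5′ minus the 3′ signal was -2.35, -2.13, -3.43 and -2.39 in controls and -4.29, -4.20, -4.29 and -4.07 in silenced cells, without overlap, and changed by -1.64 (SE 0.29, limma adjusted p 0.00273).

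In Med17, a head subunit at the core of the module, the probe shown above fell by 1.44 (SE 0.26, limma adjusted p 0.00486) and the probe near the 3′ end changed by -0.16 (limma adjusted p 0.684). The difference of -1.28 had a limma adjusted p of 0.0102. In Tbp the difference was -1.27 (limma adjusted p 0.0108). In Gtf2h1 the 5′ probe has only a bound in silenced cells, so no size is given, and its call ended without silenced replicate 1 or 4 (limma adjusted p 0.102 and 0.0808). In Med8 the 2 probes shown above changed by -0.50 and 0.48, neither called, and the difference of -0.98 was (limma adjusted p 0.00953). The differences of Polr2a, Med25, Tbp, Med17, Med28, Med8 and Med12 were called under all 18 alternatives. The reverse order was called under all 18 for Polr2l (1.10, limma adjusted p 0.0109) and under 10 of 18 for Taf15 (0.64, limma adjusted p 0.0287).

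A polyadenylation signal (AATAAA or ATTAAA, on the probe's own strand only) was looked for in the probe sequences as a mark of transcript ends. It was present in 23 of 149 tested member probes (15.4%) and in 14.9% of all tested probes. None of those 23 was lower by limma, 1 was at an unadjusted limma p under 0.05, and their median change was 0.06. Of the 126 member probes without it, 32 were lower (25.4%), with a median of -0.34. Over the array 6.64% of probes with the signal and 20.4% of those without it were lower, so the members followed the array here too. The median GC content of called member probes, all of them lower, was 45.0%, and that of member probes not called was 40.0%. Over the array it was 45% for probes called lower and 41.7% for those not called.

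Genes that act with this machinery were described from 7 lists, by brightest probe. Of 67 tested genes, 8 were lower (11.9%) and 2 higher (2.99%), with a median change of -0.19. Both shares were below those of all genes by brightest probe (14.0% and 5.99%). Among 31 pausing and elongation genes 5 were lower, led by Eaf2 (-2.25, limma adjusted p 0.00463), a partner of the ELL elongation factors, and none was higher. Among 11 phosphatases and readers of the carboxy-terminal domain 2 were lower, led by Scaf4 (-1.09, limma adjusted p 0.00673), which binds that domain. Btaf1, which removes TBP from DNA, was lower (-0.96, limma adjusted p 0.0246), 1 of 4 relatives and regulators of TBP.

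The 2 rises were in Cdk19 and Rpap1. Cdk19, a kinase of the Mediator kinase module, read 9.50, 9.72, 9.62 and 9.86 in controls and 10.95, 10.63, 11.16 and 10.07 in silenced cells, without overlap (1.03, limma adjusted p 0.0189). The alternative kinase Cdk8 and the partner cyclin gene Ccnc were at -0.06 and 0.34 and not called. Rpap1, an assembly factor of the polymerase, was at 0.83 (limma adjusted p 0.0368), 1 of 7 assembly genes. None of the 6 genes of the PAF1 elongation complex and none of the 5 other TFIIH subunits was called by limma. At an unadjusted limma p under 0.05 there was 1 in each list, Ctr9 (-0.76) and the kinase Cdk7 (-0.53).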

How the data were processed

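Total RNA of 8 C2C12 cultures was labelled with Cy3 and hybridised to Agilent mouse arrays. The deposited scanner files hold spot intensity after the background and spatial correction of Feature Extraction (12.0.0.7 per the file headers, 10.7.3.1 in the submitters' processing notes). The authors' series table holds intensity too, on another scaling. The deposited flags (0 or 1) for dim, outlying and saturated spots were used too. The labelling kit copies RNA from its poly(A) end, so signal can depend on the distance of a probe from that end.

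As in the study's methods, spots not positive and significant were set to missing, log2 values were quantile normalized and spots of one probe averaged. Control and outlying spots were left out. Probes with at least 3 values in each group were fitted with lmFit and eBayes (limma 3.58.1, R 4.3.3), group being the only term, and p-values were adjusted over all tested probes (Benjamini-Hochberg, threshold 0.05). A gene was represented by its brightest tested probe. Bounds ("at least N-fold") set the bright group against the lowest signal well above background on each dim array, or the probe's own value where higher. Symbols are those of the array design. RefSeq accessions were given for 144 member probes, and 137 of them were found in a GRCm38.p6 gene table, where Taf4a is now Taf4. Coordinates are mm9, as in the files, and exon or UTR positions were not analysed here.

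The named genes were Polr2a to Polr2l, Tbp, Med12, Med13 and their paralogs, the largest called changes without overlap (up to 5 per class and direction), probes above background in 1 group only, and the 6 largest 5′ against 3′ differences. For the other lists it was the largest called fall and rise. Any further gene given by name was chosen after its value was seen. The members and lists were chosen with earlier results of these data known. The alternatives, the other normalizations, masks, blocks, priors, left-out arrays, probe choices and a t-test with unequal variances, are reported at the end. Precision is limited by the number of arrays. The fit was tested on simulated data. Figures were drawn with matplotlib 3.10.9.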

Additional observations from a re-analysis of the deposited data

Results flagged for a closer look

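Among the named genes, the lowest or highest of a group's 4 values was compared with Dixon's critical value for its gap to its neighbour relative to the whole range. Of 51 groups of 4 values 2 exceeded it, where chance gives about 1 in 20, and both rested on silenced replicate 4, the dimmest array. The brightest Med17 probe read 9.14 on that array against 9.83 to 9.94 on the other silenced arrays. The brightest Med13l probe read 6.89 against 11.34 to 11.89. No reason for either was tested.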

How the results depend on the processing

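No member fall was called higher in any alternative, and the counts of rises depended on the processing. The quantile-normalized limma values had 1373 probes higher and 5269 lower over the array, 0 and 32 among member probes, 0 and 11 among member genes, and 15 members with the larger fall at the 5′ probe against 2 at the 3′ probe. Rises over the array, among member probes and among member genes numbered 7075, 29 and 23 with a shift to the 75th percentile, 5416, 21 and 13 with cyclic loess, 4990, 16 and 12 with no masking, 4509, 19 and 15 in the series values, and 5341, 15 and 7 without both control replicate 3 and silenced replicate 4. With normexp 1 member probe and 1 member gene were higher. The 75th percentile shift also turned the median change of members to 0.0678, that of all probes to 0.1647 and that of Polr2h to 0.45. The share of calls that were lower was 79.3% in the quantile-normalized values, and 38.2%, 49.3%, 49.0%, 49.7% and 56.6% in these settings in the order given, normexp aside. The cause of these shifts was not tested. The 3′ probe fell more in 4 members with no masking and in 5 without both arrays. With a block for the slide row, 534 probes were higher and 2572 lower, 18 member probes and 7 member genes were lower, and the 3′ probe fell more in 1. A t-test with unequal variances gave 566 probes higher and 2854 lower after Benjamini-Hochberg adjustment, with 20 member probes lower. Unadjusted, it gave 2232 higher, with 3 member probes and 2 member genes higher.

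Leaving out 1 array gave 684 to 3572 probes higher and 2995 to 5737 lower, 0 to 8 member probes higher and 20 to 31 lower, 0 to 5 member genes higher and 8 to 11 lower, a member median of -0.3823 to -0.1095, and 11 to 21 members with the larger fall at the 5′ probe against 1 to 3 at the 3′ probe. The highest counts of rises came without silenced replicate 4. Pvt1 was called lower in every setting that tested it, from -3.12 to -2.19. Of the called named genes, Med20, Med22, Polr2b and Taf5l lost the call in 9, 4, 3 and 3 settings.

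The replicate numbers were not taken to pair the arrays, since the correlations of same-numbered deviations were -0.0189, 0.152, 0.198 and 0.0613. With the replicate block 1023 probes were higher and 3994 lower, with 0 and 22 among member probes, 0 and 8 among member genes, a member median of -0.31, and 16 against 2 pairs. Polr2b, Med20 and Taf5l then had limma adjusted p-values of 0.0528, 0.0774 and 0.051. The series values and the t-test were not run for pairs of probes.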
